A study of Mus musculus with 6 samples.

Results

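Cytokine receptor genes and genes of the SOCS feedback inhibitors were examined in double-positive thymocytes of Kansl1fl/fl mice with and without CD4-Cre. The 10 genes were picked by name from the deposited count table of 29626 genes. They are 7 receptor chains (Il7r, Il2rg, Il4ra, Il6ra, Il6st, Ifngr1 and Ifngr2) and 3 inhibitors (Socs1, Socs3 and Cish), and each name had 1 row in the table. The cells were CD4+CD8+ thymocytes sorted from mice of 8 weeks. The control group was 3 Kansl1fl/fl mice, which carry the floxed gene and no Cre (their genotype is labelled WT). The KANSL1-deficient group was 3 Kansl1fl/fl CD4-Cre mice, which have Cre under Cd4 control beside that floxed gene. Controls were littermates, per the series' design text, and nothing was stimulated in culture. Cre is present in 1 group alone, and its own effect cannot be told apart from that of losing Kansl1. KANSL1 is a scaffold subunit of the NSL complex, which holds the histone acetyltransferase KAT8.

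Receptors of this class have no enzyme activity of their own. A ligand joins the receptor chains, JAK kinases bound to the chains phosphorylate STAT transcription factors, and these enter the nucleus. STAT factors switch on genes of the SOCS family, whose products bind the receptors or JAKs and shut the signal down, so SOCS transcripts are often read as a trace of cytokine signalling. Early thymocytes depend on IL-7. At the double-positive stage its receptor chain IL-7Rα is shut off, and it returns after positive selection, while SOCS1 is known to be abundant at this stage and to blunt the response to cytokines.

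STAT dimers bind DNA at palindromes of TTC and GAA with a short spacer. The promoters of the SOCS genes are shown because these genes are textbook STAT targets and Socs1 and Socs3 were both higher in the KANSL1-deficient cells, as given below. The sequences are from RefSeq in the GRCm38.p6 build, 5′ to 3′ on the gene's strand, with matches to TTCNNNGAA in capitals. The motif reads the same on both strands. The Socs1 window is chr16:10785537-10785786 and the Socs3 window chr11:117969367-117969616, both on the minus strand and both the 250 bases before the start. The Cish window is chr9:107296409-107296678 on the plus strand, with 250 bases before the start and the 20 bases from it.
Socs1: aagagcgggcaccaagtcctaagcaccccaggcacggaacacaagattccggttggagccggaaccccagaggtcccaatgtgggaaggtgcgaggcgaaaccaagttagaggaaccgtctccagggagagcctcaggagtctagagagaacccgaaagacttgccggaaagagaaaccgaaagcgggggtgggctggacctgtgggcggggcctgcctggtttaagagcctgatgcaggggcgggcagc
Socs3: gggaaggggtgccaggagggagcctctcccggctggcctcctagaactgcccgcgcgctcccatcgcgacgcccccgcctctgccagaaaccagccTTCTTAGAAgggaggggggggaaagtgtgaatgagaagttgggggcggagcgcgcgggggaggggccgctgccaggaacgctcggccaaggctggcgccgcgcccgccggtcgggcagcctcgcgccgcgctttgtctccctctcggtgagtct
Cish: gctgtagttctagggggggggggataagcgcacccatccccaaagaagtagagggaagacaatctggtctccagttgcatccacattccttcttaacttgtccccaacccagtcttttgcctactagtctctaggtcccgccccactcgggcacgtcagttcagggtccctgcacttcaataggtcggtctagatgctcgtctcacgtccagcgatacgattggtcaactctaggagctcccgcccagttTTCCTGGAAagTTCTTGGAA
Socs3 has 1 match, TTCTTAGAA, from base -154 to -146 before the start. Cish has 2 matches, TTCCTGGAA at bases 1 to 9 and TTCTTGGAA at bases 12 to 20 counted from the start, and Socs1 has none. Windows of 300 bases, 250 before the start and 50 from it, were searched for all 10 genes. TTCNNNGAA was found in 3 of them, the other being Il7r with TTCAGGGAA from base -142 to -134. Among all 32851 promoter windows 8.3% hold this motif. The form with a longer spacer, TTCNNNNGAA, is held by 6.95% of all windows and was found in 1 of the 10, Ifngr2, as TTCCCGGGAA from base -91 to -82. No match of one motif overlapped a match of the other in these windows. A match describes letters only, and no binding was measured.

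The libraries held between 19361968 and 22459830 counts. Markers of the double-positive stage summed to between 12315 and 12797 CPM (counts scaled to library depth) in the controls and to between 14542 and 16252 CPM in the KANSL1-deficient libraries, and 3 of 8 rose, against 3.85% of all tested genes. The targeted gene itself, Kansl1, was read at 214, 189 and 230 CPM in the controls, against 146, 168 and 188 CPM in the KANSL1-deficient libraries. At a log2 fold change of -0.33 ± 0.14 (SE) it missed the threshold (adjusted p = 0.171 by edgeR). These counts cover the whole gene, so they check the labels only weakly.

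Of the 10 genes, 8 had enough reads to be tested, and 4 of them rose in the KANSL1-deficient cells. They were the inhibitors Socs1 and Socs3 and the receptor chains Ifngr1 and Il6st, with rises between 1.45-fold and 1.80-fold. None fell, and Il2rg, Il4ra, Ifngr2 and Il6ra did not pass the test or reach an unadjusted p under 0.05. Bulk counts cannot tell fewer cells of a type from less RNA per cell. Among all 15353 tested genes 3.85% rose, 2.91% fell and 6.76% passed in either direction (edgeR's quasi-likelihood test, p under 0.05 after Benjamini-Hochberg adjustment over all of them). In the same 4 genes every KANSL1-deficient library was above every control, which held in that direction for 14.6% of all tested genes. The median log2 fold change of the 8 genes was 0.31, against -0.02 over all tested genes. The background moves with abundance. With all tested genes split by mean CPM into 10 groups of like size, 6 of the 8 genes lay in the most abundant group, where 13.2% rose and the median was 0.20 on the log2 scale. Socs3 lay in abundance group 3, where 4.23% rose.

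**Figure D1:**
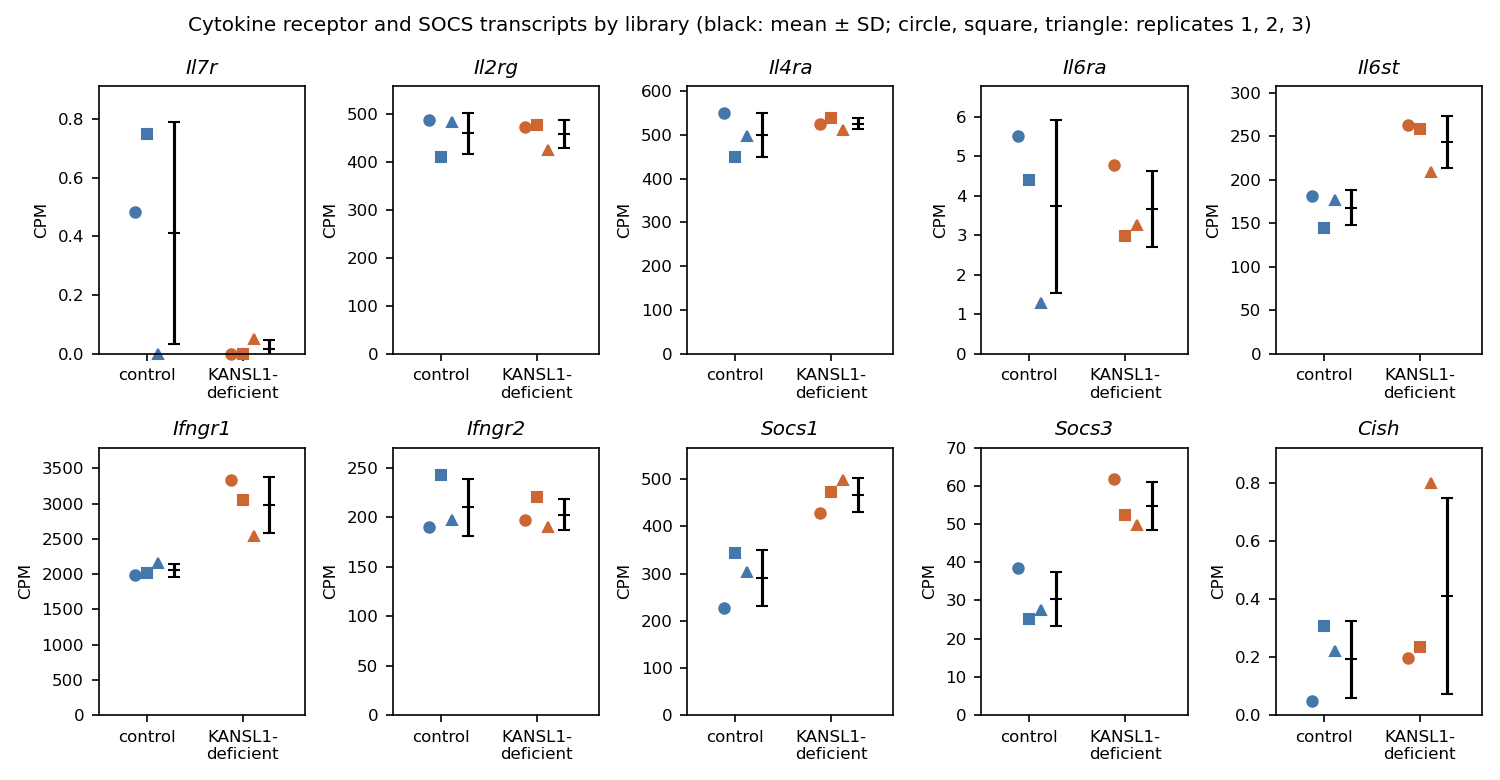
CPM of each of the 10 genes (vertical axes, each from 0) in the 3 control libraries (blue) and the 3 KANSL1-deficient libraries (orange). Circles, squares and triangles are replicates 1, 2 and 3, and black bars give the mean ± SD. In Il6st, Ifngr1, Socs1 and Socs3 all orange points lie above all blue points, and in the other 6 genes the groups overlap.

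Of the tested genes, Socs3 and Socs1 had the highest log2 fold changes. Socs3 (ENSMUSG00000053113, GRCm39 chromosome 11, 117856905 to 117860873) encodes the inhibitor that binds the shared IL-6 receptor chain gp130. It was read at 38.4, 25.3 and 27.4 CPM in control replicates 1 to 3, against 61.7, 52.3 and 49.8 CPM in KANSL1-deficient replicates 1 to 3. Replicate 1 was the highest of each group, and the groups did not overlap. Group means were 30.3 ± 7.02 and 54.6 ± 6.30 CPM (SD, n = 3 each). This was a log2 fold change of 0.85 ± 0.19 (SE), a fold of 1.80 with a 95% interval of 1.34 to 2.41 (edgeR, adjusted p = 0.0247).

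Socs1 (ENSMUSG00000038037, chromosome 16, 10600104 to 10603400) encodes the inhibitor that acts on JAK kinases downstream of interferon-gamma and of the receptors that use the common gamma chain. It was read at 226, 343 and 303 CPM in the controls, against 428, 473 and 498 CPM in the KANSL1-deficient libraries. Control replicate 1 was the lowest library, and the highest control stood below the lowest KANSL1-deficient library. Group means were 291 ± 59.3 and 467 ± 35.4 CPM (SD, n = 3 each). Its log2 fold change was 0.68 ± 0.15 (SE), a fold of 1.60 with a 95% interval of 1.28 to 2.02 (edgeR, adjusted p = 0.0229).

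Cish (ENSMUSG00000032578, chromosome 9, 107173225 to 107179983), the STAT5-induced inhibitor that is often used as a readout of IL-7 and IL-2 signalling, was barely read. It had 1, 7 and 5 counts in the controls, against 4, 5 and 16 counts in the KANSL1-deficient libraries. KANSL1-deficient replicate 3 stood above the rest, and the other libraries of that group, at 0.197 and 0.236 CPM, lay within the range of the controls (mean 0.192 CPM). Over the groups this was 13 against 25 counts, a ratio of 2.07 (95% Poisson interval 1.02 to 4.40, for counting error alone). It was below the filter on low counts, and an exact two-sided permutation test of its CPM gave p = 0.5. Socs2, another STAT5 target of the family, also fell under the filter, with 0.515 and 0.464 CPM on average in the controls and the KANSL1-deficient libraries. Of the 4 tested other members of the family (Socs4 to Socs7) none passed with edgeR, DESeq2 or limma-voom, none had an unadjusted p under 0.05, and their log2 fold changes lay between -0.26 (Socs6) and 0.31 (Socs7).

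Interferon-gamma binds a receptor of ligand-binding IFNGR1 chains and signal-carrying IFNGR2 chains. Ifngr1 (ENSMUSG00000020009, chromosome 10, 19467697 to 19485977) was by far the most abundant of the 10 transcripts. It was read at 1986, 2012 and 2160 CPM in the controls, against 3339, 3056 and 2548 CPM in KANSL1-deficient libraries. The controls lay close together, and the KANSL1-deficient libraries were all higher but more spread. The log2 fold change was 0.54 ± 0.12 (SE), a fold of 1.45 with a 95% interval of 1.21 to 1.74 (edgeR, adjusted p = 0.0234). Its partner Ifngr2 (ENSMUSG00000022965, chromosome 16, 91343960 to 91362511) gave 190, 243 and 197 CPM in the controls, against 197, 220 and 189 CPM in the KANSL1-deficient libraries, and the groups overlapped. Its log2 fold change was -0.05 ± 0.13 (SE; edgeR adjusted p = 0.875), with a 95% interval from 0.787-fold to 1.18-fold.

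The balance of the 2 chains within a library does not depend on the scaling between libraries. Per length, Ifngr1 exceeded Ifngr2 by 13.9, 11.0 and 14.5 times in the controls and by 22.4, 18.4 and 17.8 times in the KANSL1-deficient libraries. All 3 KANSL1-deficient ratios were above all control ratios. The mean log2 ratio of FPKM (fragments per kilobase of transcript, scaled to depth) was 3.70 ± 0.22 and 4.28 ± 0.18 (SD, n = 3 each), a rise of 0.58. An exact two-sided permutation test gave p = 0.1, the smallest that 3 against 3 libraries allow, and 0.3 after Benjamini-Hochberg adjustment over the 3 chain pairs tested. Both genes lie in the most abundant of the 10 groups. When a trend of the fold change with abundance was removed (limma-voom with cyclic loess) the log2 fold change of Ifngr1 was 0.11 (adjusted p = 0.549) and that of Ifngr2 -0.21.

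**Figure D2:**
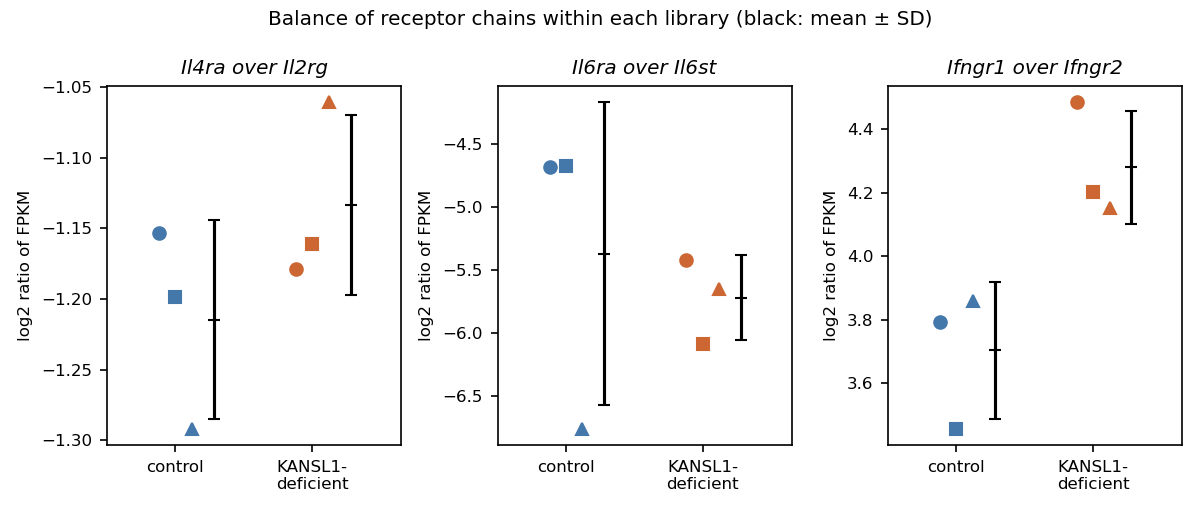
Log2 ratio of FPKM between receptor chains that act together, in each control (blue) and KANSL1-deficient (orange) library, with mean ± SD in black (the axes do not start at 0 and differ between panels). Ifngr1 over Ifngr2 was 3.70 in the controls and 4.28 in the KANSL1-deficient libraries with no overlap, whereas the groups overlap for Il4ra over Il2rg and for Il6ra over Il6st.

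IL-6 is bound by IL-6Rα, which then recruits gp130, the signalling chain that it shares with related cytokines. Il6st, the gp130 gene (ENSMUSG00000021756, chromosome 13, 112600604 to 112646620), gave 182, 144 and 177 CPM in the controls, against 263, 259 and 209 CPM in the KANSL1-deficient libraries. Control replicate 2 was the lowest, KANSL1-deficient replicate 3 was the lowest of its group, and the groups did not overlap. The log2 fold change was 0.54 ± 0.14 (SE), a fold of 1.45 with a 95% interval of 1.17 to 1.80 (edgeR, adjusted p = 0.0413). Il6ra (ENSMUSG00000027947, chromosome 3, 89771366 to 89820503) was scarce and uneven, at 5.51, 4.40 and 1.28 CPM in the controls, against 4.77, 2.97 and 3.25 CPM in KANSL1-deficient libraries. The reading of control replicate 3 rests on 29 counts, with a 95% Poisson interval of 19.4 to 41.6, against 114 and 100 counts in the other controls. The log2 fold change of Il6ra was -0.02 ± 0.50 (SE; edgeR adjusted p = 0.987), with a 95% interval from 0.461-fold to 2.10-fold.
Per length, Il6ra stood at 0.0390, 0.0392 and 0.00925 of the Il6st level in the controls and at 0.0233, 0.0147 and 0.0200 in the KANSL1-deficient libraries. The mean log2 ratio differed by -0.35 (exact two-sided permutation p = 0.6, and 0.6 after adjustment). Control replicate 3 held the lowest ratio of all. The difference was -1.04 without that library, -0.00196 without control replicate 1 and 0.000916 without control replicate 2.

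The IL-7 and IL-4 receptors share the common gamma chain, encoded by Il2rg. Il2rg (ENSMUSG00000031304, chromosome X, 100307984 to 100311861) gave 488, 411 and 484 CPM in the controls, against 473, 479 and 425 CPM in KANSL1-deficient libraries. The ranges overlapped, and the log2 fold change was -0.01 ± 0.12 (SE; edgeR adjusted p = 0.986), with a 95% interval from 0.832-fold to 1.19-fold. Il4ra, the IL-4 binding chain (ENSMUSG00000030748, chromosome 7, 125151292 to 125178646), gave 551, 451 and 497 CPM in the controls, against 526, 538 and 512 CPM in KANSL1-deficient libraries. The latter lay inside the range of the controls. Its log2 fold change was 0.07 ± 0.12 (SE; edgeR adjusted p = 0.786), with a 95% interval from 0.882-fold to 1.25-fold. Il4ra stood at 0.450, 0.436 and 0.408 of the Il2rg level per length in the controls and at 0.442, 0.447 and 0.479 in the KANSL1-deficient libraries. The mean log2 ratio differed by 0.08 (exact two-sided permutation p = 0.3, and 0.45 after adjustment).

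Il7r (ENSMUSG00000003882, chromosome 15, 9505874 to 9530262) was barely read. It had 10, 17 and 0 counts in the controls, against 0, 0 and 1 counts in the KANSL1-deficient libraries. The reads came almost wholly from control replicates 1 and 2, while control replicate 3 had none and was like the KANSL1-deficient libraries. The group sums were 27 and 1 counts, a ratio of 0.0398 (95% Poisson interval 0.000972 to 0.242, again for counting error alone). Over libraries the exact two-sided permutation test of CPM gave p = 0.4. Without a filter on low counts edgeR gave an adjusted p of 0.333. A count of 0 in a library has a 95% Poisson interval of 0 to 3.69 counts. Il7r is high in early and in single-positive thymocytes, and the part of such cells in its counts was not tested. Summed markers of double-negative cells were 52.5, 49.2 and 58.4 CPM in control replicates 1 to 3. Their members differed: Cd44 gave 30.1, 27.7 and 43.3 CPM of this, and Il2ra 15.9, 14.7 and 7.70 CPM. Markers of CD4 single-positive cells summed to 161, 144 and 170 CPM in the same libraries, most of it Gata3 (131, 106 and 133 CPM). Among 7 genes known to regulate Il7r, Ets1, a transcription factor of T cells, rose (log2 fold change 0.48, edgeR adjusted p = 0.0343), and none fell. This is 14.3% of the list, against 3.85% of all tested genes and 13.2% of the most abundant group, and with the abundance trend removed Ets1 was at 0.05 (limma-voom adjusted p = 0.812). Gfi1, a repressor of Il7r, had a log2 fold change of 0.14 and Foxo1, an activator, of -0.38, and neither passed (edgeR adjusted p = 0.776 and 0.261).

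Per length the 10 genes spanned several orders of magnitude. In the controls the order was Ifngr1 (758 ± 36.4 FPKM), Il2rg (203 ± 21.9), Socs1 (105 ± 19.9), Il4ra (87.6 ± 10.2), Ifngr2 (58.5 ± 7.05), Il6st (15.9 ± 2.16), Socs3 (11.1 ± 2.73) and Il6ra (0.454 ± 0.270; SD, n = 3 each). Il7r, listed at 0.111, 0.166 and 0, and Cish, at 0.00805, 0.0496 and 0.0361 FPKM in the 3 controls, came last. Among controls the ranges of Socs1 and Il4ra overlapped, as did those of Il6st and Socs3, those of Il6ra and Il7r and those of Il7r and Cish. In the KANSL1-deficient libraries the first 8 kept this order. Socs1 was then at 152 ± 14.6 and Il4ra at 83.0 ± 1.61 FPKM, and their ranges no longer overlapped, while Il6st (20.8 ± 2.16) and Socs3 (17.9 ± 1.73) still did. Ifngr1 stood above 99.8% of all tested genes in the controls, and Socs1 above 97.5%.

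**Figure D3:**
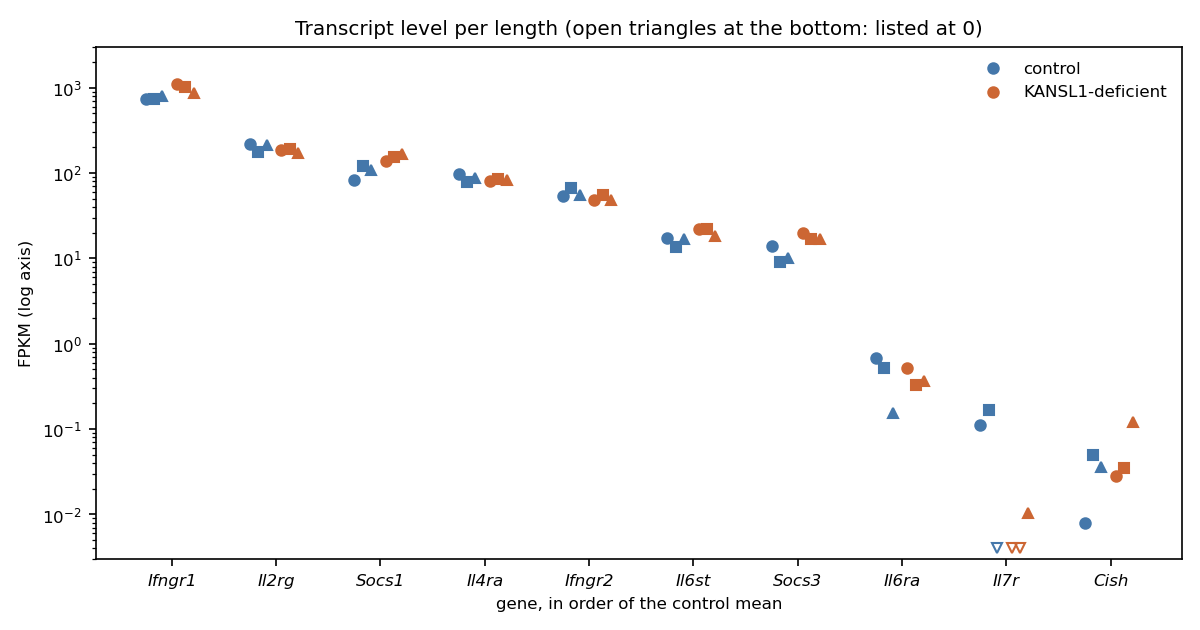
FPKM of the 10 genes on a log axis, in order of the control mean, for 3 control (blue) and 3 KANSL1-deficient (orange) libraries. Ifngr1 leads at 758 FPKM in the controls, and Il7r and Cish lie at the bottom, Il7r with 3 libraries listed at 0.

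The 4 rises were not equally firm. Socs3 lost its call without control replicate 2 (adjusted p = 0.0960), control replicate 3 (0.0748) or KANSL1-deficient replicates 1 (0.110), 2 (0.0788) or 3 (0.0504). Socs1 lost it without KANSL1-deficient replicates 1 (0.0601), 2 (0.0881) or 3 (0.0728). For Ifngr1 this was so without control replicates 1 (0.0646) or 2 (0.0833) and KANSL1-deficient replicates 1 (0.110) or 2 (0.101). For Il6st it was so without control replicates 1 (0.0583), 2 (0.138) or 3 (0.0709) and KANSL1-deficient replicates 1 (0.159) or 2 (0.158; edgeR throughout). The direction held in each of these fits, and the 4 log2 fold changes stayed between 0.42 and 1.04. With library totals in place of TMM scaling, which lowered the median of all genes by 0.15, Socs1 and Socs3 passed and Ifngr1 (0.39, adjusted p = 0.0558) and Il6st (0.38, 0.111) did not. With the abundance trend removed Socs3 alone passed, at 0.91 (limma-voom adjusted p = 0.0149), and Socs1 was at 0.47 (0.0685). The authors' deposited table gives an adjusted p under 0.05 for 4 of the 10 genes, the same ones, from 0.000600 for Socs1 to 0.00634 for Il6st. It marks none of them as significant, at folds between 1.45 and 1.80. The share of all genes with such a value in the authors' comparison is not given here, so these 4 have no background from it. DESeq2 and limma-voom run here also called these 4 higher, where they called 8.60% and 4.67% of all tested genes higher.

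**Figure D4:**
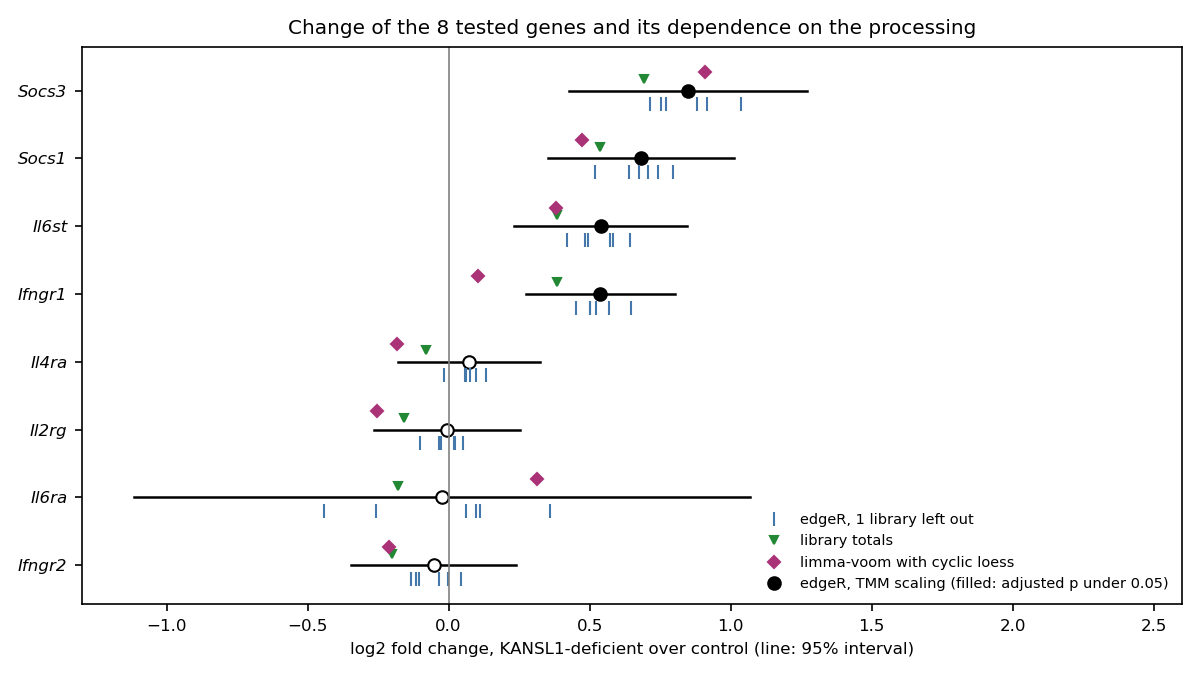
Log2 fold change of the 8 tested genes (circles, filled where the adjusted p is under 0.05) with 95% intervals, and the same with library totals (green), with the abundance trend removed (purple) and with 1 library left out (blue ticks). Socs3 and Socs1 stay between 0.47 and 1.04 in these fits, whereas Ifngr1 falls to 0.11 when the abundance trend is removed.

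Beyond these genes, few of the pathway passed. Of 15 other tested receptors of the class none passed with edgeR, and the median log2 fold change was 0.33. An unadjusted p under 0.05 was reached by 2, Ifnar1 (higher) and Il11ra1 (lower, log2 fold change -0.79, edgeR adjusted p = 0.152). The smallest p was that of Ifnar1, a type I interferon receptor chain, at a log2 fold change of 0.45 (edgeR adjusted p = 0.0578), and DESeq2 and limma-voom called this 1 of the 15. For Ifnar1 the controls gave 138, 122 and 156 CPM and KANSL1-deficient libraries 195, 188 and 185 CPM. Ifnar1 and Il11ra1 are named here after their values were seen. Of 16 ligand genes, 8 were in the table, and Osm was the 1 with enough reads to test (log2 fold change -0.48, edgeR adjusted p = 0.494). Of 4 JAK kinase genes none passed with edgeR and 2 had an unadjusted p under 0.05. They were Jak1, at a log2 fold change of 0.39 (edgeR adjusted p = 0.0562), and Tyk2, at -0.63 (0.211). Jak3 was at -0.58 (0.344) and Jak2 at 0.16 (0.625). DESeq2 and limma-voom called Jak1 alone among the 4. Over all tested genes these tools called 8.60% and 4.67% higher.

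Stat5a and Stat5b, the factors of IL-7 signalling, did not pass, at log2 fold changes of 0.09 and 0.19 (edgeR adjusted p = 0.696 and 0.395). Of 13 other inhibitors and phosphatases Ptpn6, a tyrosine phosphatase that dampens receptor signals, rose (log2 fold change 0.59, edgeR adjusted p = 0.0493), which is 7.69% of the list against 3.85% of all tested genes. With the abundance trend removed Ptpn6 was at 0.43 and did not pass (limma-voom adjusted p = 0.127). DESeq2 called 3 of these 13 higher (Ptpn6, Cbl and Usp18) and limma-voom 2 (Ptpn6 and Cbl). Of all tested genes these tools called 8.60% and 4.67% higher. Cbl and Usp18 are named here after their values were seen. Of 6 genes of the ubiquitin ligase that SOCS proteins recruit, none passed with edgeR, DESeq2 or limma-voom and none had an unadjusted p under 0.05, and the median was -0.09.

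Of 14 tested STAT target genes 4 rose (28.6%, against 3.85% of all tested genes) while none fell, and the list median was 0.31 on the log2 scale. They were Bcl6, a transcriptional repressor (0.90 ± 0.16 SE, edgeR adjusted p = 0.00848), Pim1, a serine kinase (0.83), Gbp2, an interferon-induced GTPase (0.86), and Myc (0.87). Bcl6 went from 49.0 ± 8.29 to 91.5 ± 7.04 CPM (SD, n = 3 each). Bcl2 and Mcl1, survival genes, did not pass, at log2 fold changes of 0.11 and 0.03 (edgeR adjusted p = 0.837 and 0.932). Each of these genes is known to answer to other signals as well. The calls on these pathway genes were often lost with 1 library left out. Ptpn6 lost its call whichever library was left out (adjusted p from 0.0508 to 0.204). Gbp2 (0.0532 to 0.127) and Ets1 (0.0507 to 0.137) lost theirs when a library other than control replicate 3 was left out, and Myc (0.0589 to 0.130) when a library other than control replicate 2 was. Pim1 lost its call without control replicate 2 (0.0755) or KANSL1-deficient replicates 2 (0.0942) or 3 (0.0718), and Bcl6 without KANSL1-deficient replicate 2 (0.0505; edgeR throughout). KANSL1-deficient replicate 1 was the highest library for Ifngr1, Il6st, Socs3, Gbp2 and Myc, but the lowest of its group for Socs1 and Pim1.

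**Figure D5:**
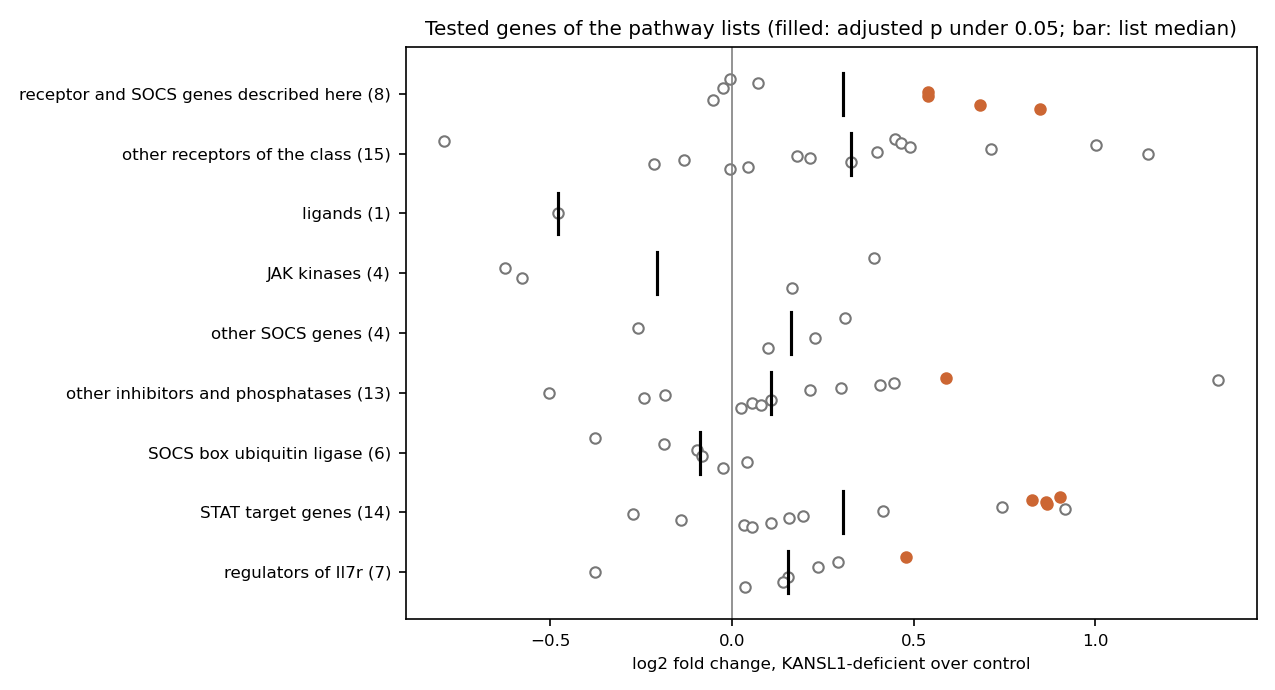
Log2 fold change of each tested gene in the pathway lists shown (number tested in brackets; filled where the edgeR adjusted p is under 0.05, bar at the list median). Filled points stand at positive values only, 4 among the receptor and SOCS genes, 4 among STAT targets and 1 each among other inhibitors and regulators of Il7r.

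Over the 6 libraries, the transcripts most like each of the 4 genes were ranked among 8812 protein-coding genes by Pearson correlation of log2 CPM. For Socs3 these were Camk4 (0.999), Agtrap (0.997) and Orai2 (0.993). For Socs1 they were Spice1 (0.995), Nbn (0.993) and Tgif1 (0.989). Ifngr1 was most like Saraf (0.997), Hadhb (0.995) and Oard1 (0.994), and Il6st most like Ccr4 (0.997), Csnk1a1 (0.993) and Dnajc3 (0.992). All points share the same 6 libraries and the difference between the groups, and the correlations are a description. Each value was picked as among the highest of 8812 over few libraries, so its height says little. Of the genes named as most alike, Agtrap alone passed the test between the groups (edgeR adjusted p = 0.0271).

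Marker lists of other thymus cells were summed for each library. CD4 single-positive markers summed to between 144 and 170 CPM in the controls and to between 255 and 300 CPM in the KANSL1-deficient libraries. Gata3 made up most of this sum, at 131, 106 and 133 CPM in the controls and 258, 209 and 211 CPM in the KANSL1-deficient libraries. Of 4 tested members 1 (Gata3) rose, against 3.85% of all tested genes. Ccr7, Klf2 and S1pr1 did not pass, at log2 fold changes of 0.51, 0.67 and -0.09. The defining marker Zbtb7b had 0 counts in 5 libraries and 1 in the sixth. Regulatory T cell markers summed to between 191 and 205 CPM and to between 274 and 326 CPM, with 1 of 4 tested (Ikzf2) higher. Ikzf2 made up most of this sum, at 138, 114 and 113 CPM in the controls and 212, 198 and 195 CPM in the KANSL1-deficient libraries. Il2ra, Ctla4 and Tnfrsf18 did not pass, at log2 fold changes of 0.49, 0.59 and -0.16. Foxp3 had at most 2 counts in a library. Double-negative markers lay between 49.2 and 58.4 and between 61.0 and 76.0 CPM, with 0 of 5 tested past the threshold by edgeR, DESeq2 or limma-voom and 0 at an unadjusted p under 0.05. Gamma-delta T, NK and NKT markers lay between 20.9 and 25.6 and between 26.3 and 32.3 CPM. CD8 single-positive markers, which include Cd8a, lay between 1947 and 2278 and between 2550 and 3088 CPM, with 0 of 5 tested past the threshold by edgeR, 2 by DESeq2, 1 by limma-voom and 2 at an unadjusted p under 0.05. Cd8a, also a double-positive marker, made up most of this sum (2227, 2198 and 1897 CPM in control replicates 1 to 3). Runx3 went the other way, at a log2 fold change of -0.69 (edgeR adjusted p = 0.0522). It had 27.0, 23.4 and 27.3 CPM in the controls, against 17.4, 14.8 and 16.0 CPM in the KANSL1-deficient libraries. Ctsw was at 0.26, Klf2 at 0.67 and S1pr1 at -0.09. The sums of these lists were higher without overlap, as the 4 genes were, and the part of such cells in the rises was not tested. Macrophage markers overlapped between the groups (10.6 to 16.5 and 8.77 to 16.4 CPM), and those of erythroid cells, B cells and thymic epithelium overlapped as well. Dendritic cell markers were between 4.53 and 5.61 CPM in the controls and between 3.30 and 3.98 CPM in the KANSL1-deficient libraries. Of the 3 tested, Zbtb46 was lower (log2 fold change -1.74, edgeR adjusted p = 0.0874), while Flt3 (0.22) and H2-Aa (0.61) had positive values. None of these passed with edgeR.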

How the data were processed

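RNA of 3 control and 3 KANSL1-deficient libraries was compared; groups come from the sample labels. The submitters' processing notes name STAR, featureCounts, DESeq2 and the GRCm39 build, without versions. The authors deposited whole-number counts and FPKM values for 29626 genes. Per the file headers, their comparison table holds a mean normalized signal, the ratio of the groups, its log2 and p-values. Per the labels' protocols, libraries were made from poly(A)-selected RNA. The sources used here do not say whether counting used strand, so reads of overlapping genes may be shared.

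Counts were tested with edgeR 4.0.16 (quasi-likelihood) in R 4.3.3 (TMM scaling, default filter with minimum count 10 and total 15, robust shrinkage), with Benjamini-Hochberg adjustment over all 15353 tested genes and a threshold of 0.05. The script was tested on simulated data. CPM use TMM-scaled library sizes. A standard error is the log2 fold change over the square root of F. Replicates are separate mice, per the labels, and every pair within a group differed by more than counting noise. Alternatives used DESeq2 1.42.0 and limma 3.58.1, other scalings and filters, log2 of FPKM plus 1 or 0.1, a block on replicate number, and each library left out. The genes and lists were chosen with earlier results of these data known. Named in the text are Kansl1, the 10 genes, up to 4 genes of each other list with the smallest p past the threshold, and the 3 most alike to each changed gene among those of at least 5 CPM; others are named as examples. Some results of the lists are not reported here.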

Additional observations from a re-analysis of the deposited data

How the results depend on the processing

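The number of the 10 genes past the threshold was 4, as it was with median-of-ratios scaling, with DESeq2, with limma-voom, without a filter and with a filter of at least 5 CPM. It was 2 with library totals, 1 with the abundance trend removed and 0 with limma on log2(FPKM + 1) or log2(FPKM + 0.1), where FPKM are relative to library totals. Leaving out 1 library gave 0 to 2. Over all genes, 1038 passed, 1729 without a filter, 2040 with DESeq2, and between 283 and 811 with 1 library left out. With library totals 27.7% of called genes were higher, with log2(FPKM + 1) 31.5%, and with TMM scaling 56.9%.

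Replicate numbers mark no shared litter or day in the labels, and the deviations of equal numbers correlated at -0.05, -0.02 and -0.10, so they were not used as pairs. With the replicate block 406 genes passed and 2 of the 10 genes did, Socs1 and Socs3.

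The log2 fold changes of genes that did not pass changed sign in some fits. Il4ra was at -0.0793 with library totals, -0.18 with the abundance trend removed, -0.0718 and -0.0725 with log2(FPKM + 1) and log2(FPKM + 0.1), and between -0.0165 and 0.134 with 1 library left out. Il6ra was at 0.31 with the abundance trend removed, 0.21 with limma-voom, 0.16 with the replicate block, and between -0.44 and 0.36 with 1 library left out. Il2rg lay between -0.102 and 0.0518 and Ifngr2 between -0.134 and 0.0439 with 1 library left out. The log2 ratio of Il6ra over Il6st lay between -1.04 and 0.000916 with 1 library left out. The counts of Il7r and Cish are few and uneven between libraries of a group, so they do not settle whether either gene changed.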
